A study of Mus musculus with 10 samples.

Results

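The 35 genes described here cover the enzymes of glycolysis, the transporters that bring in glucose and export lactate, the kinases that set the fate of pyruvate, and the oxygen-sensing proteins that control many of these genes. They were chosen by name, as glycolysis, glucose and lactate transport and hypoxia genes, and all 35 were found among the 24538 genes of the count tables. Expression was measured by RNA-seq in metastasis-associated macrophages (MAMs), sorted from small lung metastases of a mammary tumour, and in resident alveolar macrophages (RAMs), sorted from normal lung, with 5 libraries of each. All mice were wild type and aged 8 to 10 weeks. For MAMs, C57BL6/J females of 6 to 8 weeks had received E0771-LG cells, a mammary tumour line of the same strain, through the tail vein, and metastases under 1 mm across from 2 to 4 mice were combined. Sorted cells in both groups were large by forward scatter, positive for CD45, F4/80 and MRC1 and negative for LY6C. MAMs were further CD11B+ and CD11C-, and RAMs were CD11C+ and CD11B-. The digestion buffer of both held alpha-amanitin and actinomycin D, which block transcription. The groups therefore differ in tissue, in the presence of tumour cells and in macrophage subset at once, and these cannot be told apart here. The labels do not say whether libraries of a group came from separate mice in every case, so p-values measure the spread between these libraries.

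Glycolysis splits glucose into pyruvate in the cytosol. Hexokinases trap glucose in the cell, phosphofructokinase commits it to breakdown, and pyruvate kinase makes pyruvate, which lactate dehydrogenase can reduce to lactate while pyruvate dehydrogenase kinases restrain its entry into mitochondria. When oxygen falls, prolyl hydroxylases no longer mark the HIF alpha subunits for destruction, and HIF dimers then raise transcription of many glycolytic genes. Macrophages are known to shift towards glycolysis on inflammatory activation, whereas alveolar macrophages live in an oxygen-rich and glucose-poor airspace.

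HIF dimers bind DNA at hypoxia response elements, whose core is commonly ACGTG. Promoter windows of 250 bases upstream of the transcript start were taken from RefSeq on GRCm38.p6, and ACGTG was searched on both strands. The motif lay in 16.6% of all 32851 windows and in a window of 25.2% of the 9016 tested genes that had one. Of the 33 members with a window, 19 held it. It was found in 15 of the 22 members with a window that were higher in MAMs, in 1 of 4 that were lower and in 3 of 7 that were not called, beside 25.7%, 23.9% and 25.7% of all tested genes in those classes. Another form of the core, GCGTG, lay in 28.2% of all windows. Among members without ACGTG, it was held by Aldoc, Pfkfb4 and Pdk4 (lower) and by Pfkp, Gapdh, Eno1 and Pdk1 (not called). Of the higher members without ACGTG, Hk1, Pfkl, Ldhb and Slc2a6 held GCGTG, and Gpi1, Tpi1 and Eno2 did not. The 28.2% is a share of windows, while members were counted over all windows of the gene. The classes are small and were not compared by a test. Any contrast between them rests on ACGTG alone and was not seen with either form counted. Epas1 and Slc2a3 had no window in the table. The 6 windows below are shown 5′ to 3′ on the strand of the gene, with ACGTG and its reverse complement in capitals. Ldha, Pgk1, Hk2 and Egln3 were higher in MAMs, Slc16a1 was not called and Pdk2 was lower, so they show that the letters occurred in every class. They are Ldha at chr7:46845554-46845803 on the plus strand, inside the longer Ldha gene span, Pgk1 at chrX:106186850-106187099 on the plus strand, Hk2 at chr6:82774455-82774704 on the minus strand, Egln3 at chr12:54203875-54204124 on the minus strand, Slc16a1 at chr3:104638414-104638663 on the plus strand and Pdk2 at chr11:95041372-95041621 on the minus strand. None of them holds a base of an annotated exon.
Ldha: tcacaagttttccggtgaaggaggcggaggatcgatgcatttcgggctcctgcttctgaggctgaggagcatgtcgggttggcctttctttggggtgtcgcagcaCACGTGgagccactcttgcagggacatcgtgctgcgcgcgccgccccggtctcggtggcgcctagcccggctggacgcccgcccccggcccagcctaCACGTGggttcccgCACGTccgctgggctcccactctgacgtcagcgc
Pgk1: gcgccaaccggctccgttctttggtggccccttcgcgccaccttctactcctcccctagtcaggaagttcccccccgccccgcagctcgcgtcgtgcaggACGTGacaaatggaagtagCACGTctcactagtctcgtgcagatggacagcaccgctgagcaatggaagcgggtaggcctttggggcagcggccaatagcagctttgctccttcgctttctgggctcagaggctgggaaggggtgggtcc
Hk2: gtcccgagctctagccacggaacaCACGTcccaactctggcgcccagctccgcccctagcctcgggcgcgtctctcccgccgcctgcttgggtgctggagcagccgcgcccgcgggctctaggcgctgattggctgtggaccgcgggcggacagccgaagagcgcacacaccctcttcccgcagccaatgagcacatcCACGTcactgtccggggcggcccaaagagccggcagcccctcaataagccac
Egln3: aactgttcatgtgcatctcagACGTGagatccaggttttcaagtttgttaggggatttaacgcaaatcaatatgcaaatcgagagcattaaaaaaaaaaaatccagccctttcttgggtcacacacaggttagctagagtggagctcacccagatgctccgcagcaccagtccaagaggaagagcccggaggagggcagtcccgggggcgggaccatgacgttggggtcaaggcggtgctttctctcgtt
Slc16a1: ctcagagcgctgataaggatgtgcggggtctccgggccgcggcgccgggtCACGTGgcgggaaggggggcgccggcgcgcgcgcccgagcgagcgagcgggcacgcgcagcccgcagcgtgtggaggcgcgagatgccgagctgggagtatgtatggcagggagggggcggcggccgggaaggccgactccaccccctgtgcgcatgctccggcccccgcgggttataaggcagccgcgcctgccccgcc
Pdk2: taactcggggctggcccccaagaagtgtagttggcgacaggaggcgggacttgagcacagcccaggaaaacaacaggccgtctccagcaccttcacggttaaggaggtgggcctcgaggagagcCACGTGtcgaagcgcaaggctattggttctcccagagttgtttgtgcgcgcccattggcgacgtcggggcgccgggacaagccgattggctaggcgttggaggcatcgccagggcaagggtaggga
Ldha held 5 matches in this window, Pgk1, Hk2, Slc16a1 and Pdk2 held 2 each and Egln3 held 1. Where the capitals read CACGTG the motif is counted once on each strand, and the same letters are an E-box, which other factors bind. A match describes the sequence and is not evidence of binding.

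Of the 35 genes, 28 differed between MAMs and RAMs when called at 0.05 on p-values from the quasi-likelihood test of edgeR, adjusted by Benjamini-Hochberg over 11571 genes. Higher in MAMs were 23 members, where 28.9% of all tested genes were, and lower were 5, where 27.3% were. The same shares of all tested genes stand beside the counts by role below. With a fold change over 2 as well, 21 members were higher and 5 lower, against 15.3% and 15.1% of all tested genes. The higher count was 20 with library totals, where Gpi1 fell below 2-fold (log2 0.96), and 19 with limma on log2(FPKM + 1), where Pfkm (0.92) and Slc2a3 (0.86) did. The median log2 fold change of the members was 1.93, beside -0.02 for all genes tested. All 5 MAM libraries lay above all 5 RAM libraries for 21 members and below them for 5, where 23.7% and 21.2% of tested genes were separated in this way (44.9% in either direction, against 26 of 35 members). The libraries overlapped for the other 9, which were Pfkm, Slc2a3 and the 7 members that were not called (Pfkp, Gapdh, Eno1, Slc16a1, Pfkfb2, Pdk1 and Pdk3). Levels are given as CPM (counts scaled by TMM to a common total over the tested genes), and fold changes as log2 of MAMs over RAMs with the standard error (SE). The SE was derived as the absolute log2 fold change divided by the square root of the F statistic of edgeR's test. In sorted bulk samples a change in the share of cells that express a gene and a change in RNA per cell cannot be told apart.

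**Figure D1:**
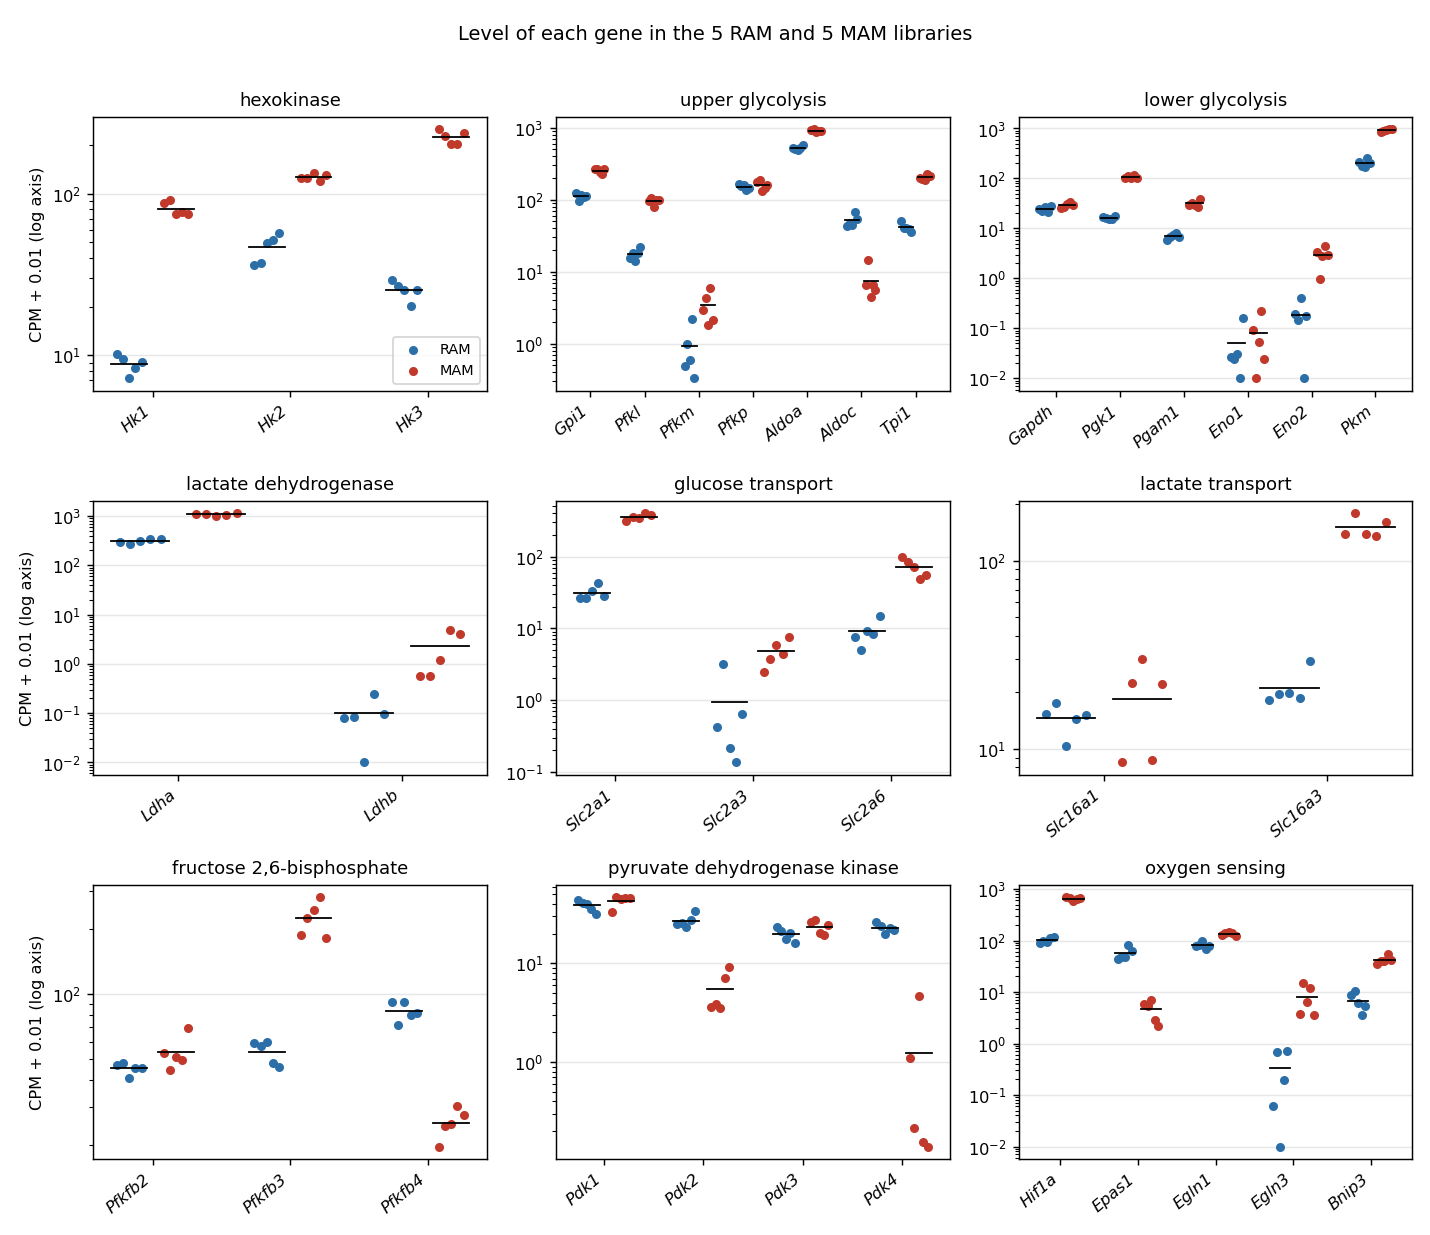
Level of each of the 35 genes in every library, in CPM on a log axis with 0.01 added, grouped by role. Each point is a library, RAMs in blue and MAMs in red, and the bar is the group mean; MAM points sit clear above RAM points for 21 genes and clear below for 5 (Aldoc, Pfkfb4, Pdk2, Pdk4 and Epas1).

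Between 55391447 and 87523247 reads were counted on genes per MAM library and between 50746305 and 72150650 per RAM library, of which 84.3% to 87.6% fell on tested genes. Most of the remaining gene counts, 12.1% to 15.2% of the total, fell on the ribosomal RNA precursor Rn45s, which was not among the tested genes. The labelled cell types were checked against marker genes. Of 13 tested alveolar macrophage markers, 12 were lower in MAMs, and their summed level was 479 to 846 CPM in MAMs and 13911 to 17010 CPM in RAMs. Of 14 markers of monocyte-derived and interstitial macrophages, 13 were higher in MAMs, with sums of 14591 to 16098 CPM and 2793 to 2958 CPM. The exception was Mrc1, a sorting marker of both groups, which made up most of the RAM sum (mean 1412 CPM in MAMs and 2625 CPM in RAMs). Itgam, which encodes the sorting marker CD11B, is on the same list and averaged 6270 CPM in MAMs and 64.3 CPM in RAMs. Itgax, which encodes the sorting marker CD11C, is among the alveolar markers (171 CPM in MAMs and 991 CPM in RAMs). The direction of Itgam and Itgax follows from the sort and is no check of the cell types. Proliferation genes were lower in MAMs for 20 of 20, and their sum was 407 to 492 CPM in MAMs and 1418 to 1804 CPM in RAMs.

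Other cells were looked for in the same way. The 4 tested markers of epithelial and tumour cells, of 11 listed, summed to 8.85 to 22.2 CPM in MAMs and 589 to 702 CPM in RAMs. Krt19 was the most abundant and Krt5 was at 0 in all libraries. The RAM sum was nearly all Krt19 (mean 436 CPM), Cdh1 (131 CPM) and Epcam (76.8 CPM), while lung epithelium markers, given below, summed to at most 46.7 CPM in RAMs. Whether RAMs themselves or other cells held these transcripts was not tested. Stromal and endothelial markers were higher in MAMs for 5 of 6 tested, summing to 41.1 to 101 CPM against 7.88 to 15.6 CPM in RAMs. Summed neutrophil markers, led by Csf3r, reached 146 to 323 CPM in MAMs and 140 to 203 CPM in RAMs, and 4 of 6 were higher in MAMs. Tested lymphocyte markers, nearly all of it Cd2, came to 22.7 to 38.4 CPM in MAMs and 257 to 324 CPM in RAMs. Lung epithelium markers came to 21.9 to 37.5 CPM and 25.5 to 46.7 CPM, a sum that hides opposite directions, since Hopx was higher in MAMs (mean 21.0 against 1.10 CPM) and 4 of the 6 tested were lower. Dendritic cell markers came to 7.69 to 15.3 CPM and 13.7 to 24.8 CPM, where Clec9a was lower in MAMs (1.01 against 19.4 CPM) and the other 2 tested were higher. None of the 9 erythrocyte genes was tested and 7 of them were listed at 0 in all libraries. Genes of the response to tissue dissociation summed to 2837 to 3313 CPM in MAMs and 2619 to 2964 CPM in RAMs, with 7 of 11 higher and 4 lower. The part of these cells and signals in the differences below was not tested.

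The glucose transporters among the members, Slc2a1, Slc2a6 and Slc2a3, were all higher in MAMs. This does not hold for every glucose carrier, since outside the members Slc2a8 was lower and Slc2a9 higher, as given below. Slc2a1, which encodes GLUT1, the main basal glucose carrier, stood at 317, 351, 347, 401 and 379 CPM in the 5 MAM libraries and at 26.6, 26.1, 33.4, 43.1 and 28.5 CPM in the 5 RAM libraries. The lowest MAM library was far above the highest RAM library, and the difference was 11.4-fold (log2 3.51, SE 0.14, edgeR adjusted p = 1.17e-11). Slc2a6, which encodes a carrier of intracellular membranes, ranged from 48.4 to 97.7 CPM in MAMs and from 5.06 to 14.8 CPM in RAMs, a difference of 7.90-fold (log2 2.98, SE 0.27, edgeR adjusted p = 1.71e-07). Slc2a3, the gene of the high-affinity carrier GLUT3, was low in both groups, at 2.48, 3.73, 5.81, 4.38 and 7.61 CPM in MAMs and 0.411, 3.20, 0.207, 0.125 and 0.639 CPM in RAMs. RAM replicate 2 lay within the MAM range, so the groups overlapped. Its log2 fold change of 2.38 (SE 0.76, edgeR adjusted p = 0.0151) was 3.78 without that library.

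Summed over the 3 carriers, FPKM (deposited levels per transcript length and library size) was 202 ± 6.99 in MAMs and 18.6 ± 4.03 in RAMs (SD, n = 5). Slc2a1 supplied 82.0% ± 5.26 of that sum in MAMs and 79.6% ± 8.18 in RAMs. The ratio of Slc2a6 to Slc2a1 counts within a library did not pass the test (difference of -0.51 on the log2 scale, exact permutation p = 0.190, adjusted p = 0.249), and neither did that of Slc2a3 to Slc2a1 (-0.31, exact permutation p = 0.778, adjusted p = 0.778). Such ratios were compared for 17 pairs of members, each with an exact two-sided permutation test over all assignments of the libraries to groups, for which 0.00794 is the smallest p possible, and adjusted over the 17.

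All 3 hexokinases were higher in MAMs, but to unequal extents. Hk1, the broadly expressed form, was at 87.4, 91.2, 75.1, 76.7 and 74.8 CPM in MAMs and at 10.2, 9.52, 7.18, 8.39 and 9.04 CPM in RAMs. Hk3, a form typical of myeloid cells, was at 251, 228, 203, 202 and 238 CPM in MAMs and at 29.1, 26.8, 25.4, 20.3 and 25.2 CPM in RAMs. Hk2, the inducible form, was at 126, 126, 135, 121 and 130.3 CPM in MAMs and at 36.4, 37.5, 49.8, 51.6 and 57.5 CPM in RAMs. MAM and RAM libraries were separate for each of them. Hk1 was 9.14-fold higher (log2 3.19, SE 0.13, edgeR adjusted p = 1.65e-11) and Hk3 8.85-fold higher (log2 3.15, SE 0.11, edgeR adjusted p = 3.15e-12). Hk2 was 2.74-fold higher (log2 1.45, SE 0.12, edgeR adjusted p = 9.66e-08).

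Per length, hexokinase FPKM summed to 122 ± 10.0 in MAMs and 19.5 ± 1.21 in RAMs (SD, n = 5). Hk2 and Hk3 held similar shares of the RAM sum, 44.0% ± 7.24 and 43.9% ± 5.54. In MAMs Hk3 held 63.1% ± 2.34 and Hk2 19.7% ± 1.75. The Hk3 to Hk2 count ratio was 1.68 higher on the log2 scale in MAMs and the Hk2 to Hk1 ratio 1.72 lower on that scale (log2 difference -1.72), each without overlap between groups (exact permutation p = 0.00794, adjusted p = 0.0123). For Hk3 to Hk1 the difference was -0.05 (exact permutation p = 0.675, adjusted p = 0.742).

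**Figure D2:**
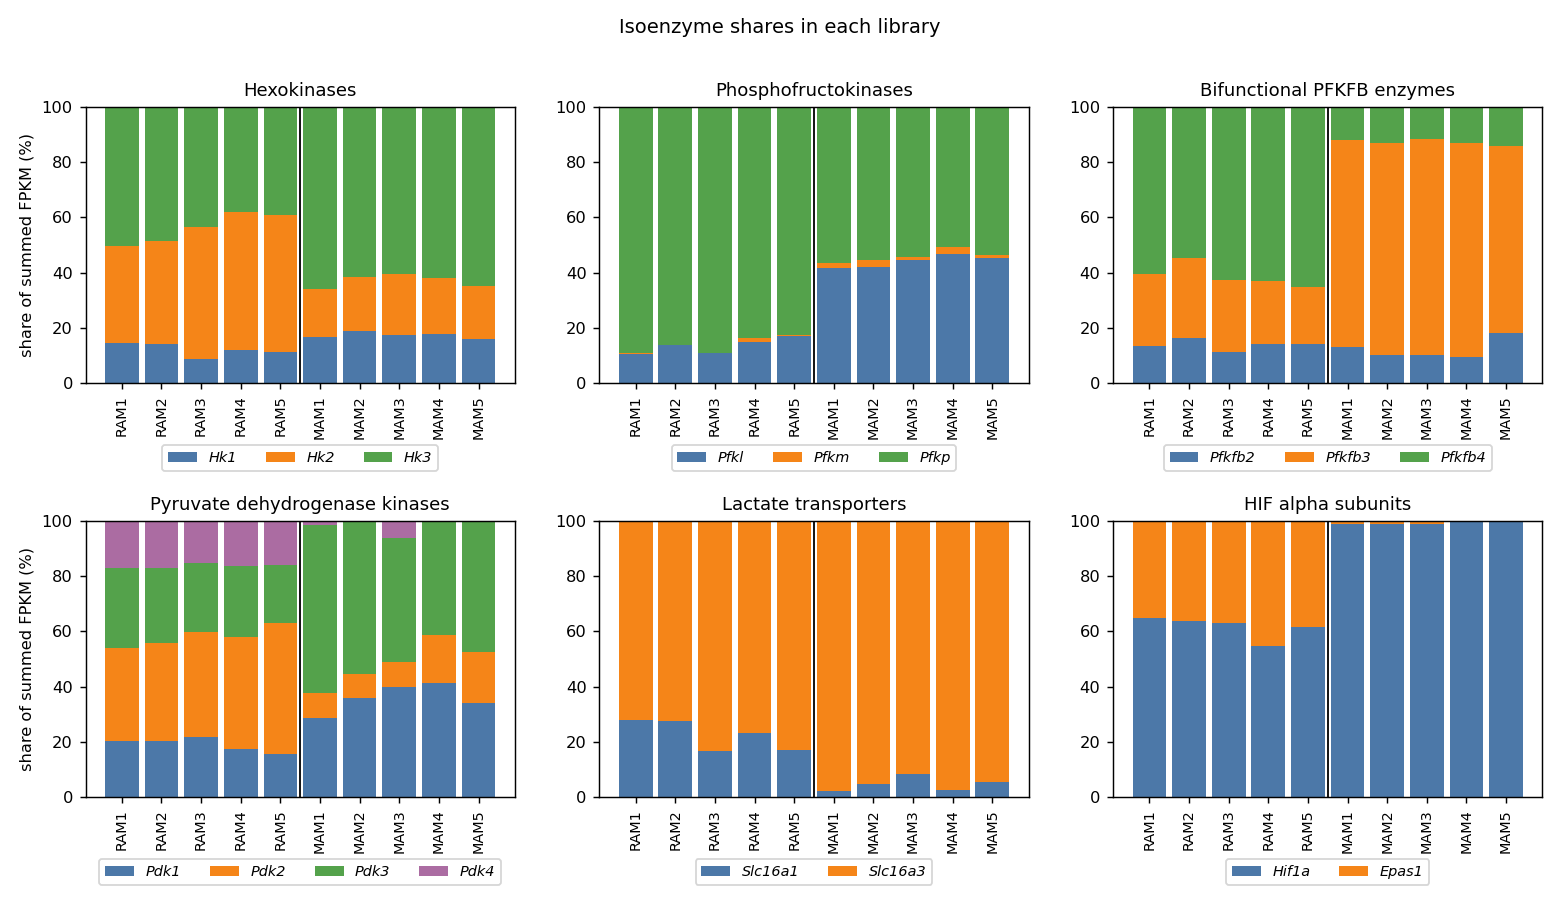
Share of each isoenzyme in the summed FPKM of its step, in percent, for every RAM library (left of the line) and MAM library (right). Pfkp gives way in part to Pfkl, Pfkfb4 to Pfkfb3, Pdk2 and Pdk4 to Pdk1 and Pdk3, and Epas1 to Hif1a, and the shift is seen in each of the 5 MAM libraries.

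In upper glycolysis, from glucose 6-phosphate to the triose phosphates, 5 of 7 genes were higher in MAMs, Aldoc was lower and Pfkp was not called. Pfkl, the liver-type phosphofructokinase, stood at 95.5, 104, 79.7, 100.4 and 97.7 CPM in MAMs and at 15.3, 17.9, 14.2, 18.2 and 22.1 CPM in RAMs. Pfkp, the platelet-type form, stood at 174, 186, 131, 146 and 159 CPM in MAMs and at 165, 154, 161, 134 and 144 CPM in RAMs. Pfkl was thus separate between groups while Pfkp overlapped throughout. The difference was 5.44-fold for Pfkl (log2 2.44, SE 0.13, edgeR adjusted p = 4.83e-10), and 1.05-fold for Pfkp (log2 0.07, SE 0.10, edgeR adjusted p = 0.579). Pfkp turned to -0.098 under upper-quartile scaling and -0.16 with library totals alone. Pfkm, the muscle-type form, reached 1.83 to 6.03 CPM in MAMs and 0.320 to 2.19 CPM in RAMs, where replicate 4 was highest. It was called higher (log2 1.93, SE 0.59, edgeR adjusted p = 0.0119), and 2.54 without that RAM library.

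The makeup of phosphofructokinase differed accordingly. Pfkl held 44.1% ± 2.12 of its summed FPKM in MAMs and 13.4% ± 2.79 in RAMs, and Pfkp held 54.1% ± 2.31 and 86.2% ± 2.97 (SD, n = 5). From counts per kilobase of exon in place of the deposited FPKM, Pfkl led in MAMs with 52.6% against 43.6% for Pfkp, while in RAMs Pfkp led with 79.5%, so the leading form in MAMs depends on the measure. Within libraries the Pfkp to Pfkl count ratio was 5.25-fold lower in MAMs, with no overlap (log2 difference -2.39, exact permutation p = 0.00794, adjusted p = 0.0123). The Pfkm to Pfkl ratio did not pass the test (-0.35, exact permutation p = 0.595, adjusted p = 0.723).

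The aldolases, which cleave fructose 1,6-bisphosphate, moved in opposite directions. Aldoa, the ubiquitous form, was at 930.4, 953, 872, 896 and 899 CPM in MAMs and at 522, 509, 498, 518 and 582 CPM in RAMs. Aldoc, the form known from brain, was at 6.59, 14.5, 4.49, 6.46 and 5.54 CPM in MAMs and at 43.4, 48.2, 45.3, 67.6 and 53.8 CPM in RAMs. Neither pair of groups overlapped, although MAM replicate 2 was higher in Aldoc than the other MAM libraries. Aldoa was 1.73-fold higher in MAMs (log2 0.79, SE 0.06, edgeR adjusted p = 4.28e-08) and Aldoc 6.87-fold lower (log2 -2.78, SE 0.28, edgeR adjusted p = 6.06e-07). By FPKM Aldoa made up 99.6% ± 0.18 of aldolase in MAMs and 95.6% ± 0.79 in RAMs. With a mean of 760 FPKM in MAMs and 452 in RAMs it held rank 106 among tested genes in each group. Per length it was the most abundant member in RAMs, and in MAMs it and Ldha (751 ± 42.0 FPKM) did not differ beyond their spread (Aldoa 760 ± 32.6 FPKM, SD, n = 5).

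The remaining enzymes of this stretch were higher in MAMs without overlap. Gpi1, which converts glucose 6-phosphate to fructose 6-phosphate, ranged from 229 to 269 CPM in MAMs and from 96.7 to 126 CPM in RAMs (log2 1.18, SE 0.08, edgeR adjusted p = 1.16e-08). Tpi1, which interconverts the triose phosphates, ranged from 185 to 228 CPM in MAMs and from 35.3 to 51.4 CPM in RAMs (log2 2.30, SE 0.11, edgeR adjusted p = 6.79e-11). The first differed by 2.27-fold and the other by 4.94-fold.

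In lower glycolysis 4 of 6 genes were higher in MAMs and 2, Gapdh and Eno1, were not called. Pgk1, the first step that yields ATP, was at 101, 111, 101, 117 and 104 CPM in MAMs and at 17.3, 16.1, 15.6, 15.2 and 18.1 CPM in RAMs. Pgam1, a phosphoglycerate mutase, ranged from 26.7 to 39.0 CPM in MAMs and from 5.91 to 8.24 CPM in RAMs. Pkm, the pyruvate kinase gene of most tissues, was at 868, 876, 924, 965 and 954 CPM in MAMs and at 217, 181, 170.2, 261 and 206 CPM in RAMs. The groups were far apart for all 3. They differed by 6.47-fold for Pgk1 (log2 2.69, SE 0.10, edgeR adjusted p = 6.14e-12), 4.51-fold for Pgam1 (log2 2.17, SE 0.17, edgeR adjusted p = 2.79e-08) and 4.43-fold for Pkm (log2 2.15, SE 0.10, edgeR adjusted p = 1.27e-10). The counts do not tell the M1 and M2 splice forms of Pkm apart.

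Gapdh, which oxidises glyceraldehyde 3-phosphate and often serves as a reference gene, was at 25.5, 26.7, 31.1, 33.9 and 28.9 CPM in MAMs and at 24.5, 22.0, 26.6, 21.8 and 27.9 CPM in RAMs. The groups overlapped (log2 0.25, SE 0.14, edgeR adjusted p = 0.132). In the deposited FPKM values, however, Gapdh was 21.3 ± 2.41 in MAMs and 11.3 ± 0.55 in RAMs (SD, n = 5), and limma on log2(FPKM + 1) called it higher by 0.85. Its neighbours in the pathway, Tpi1 and Pgk1, were at 147 and 56.2 FPKM in MAMs and at 30.2 and 8.81 FPKM in RAMs, so Gapdh lay below both in MAMs and between them in RAMs. Against the annotated transcripts of GENCODE M21, the coding sequence of Gapdh matched 164 other genes, 157 of them pseudogenes, at 90% identity or more over at least 50% of its length, the most of any member. The counts hold only uniquely mapped reads, and what these copies took from Gapdh was not tested.

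Eno1, the ubiquitous enolase, was counted at 4, 0, 2, 12 and 1 reads in MAMs and at 1, 1, 1, 0 and 7 in RAMs, where a count of 0 allows up to 3. Such counts carry no direction: the fitted value of 0.83 (SE 1.24, edgeR adjusted p = 0.594) became -0.20 without MAM replicate 4 and 2.22 without RAM replicate 5. Its coding sequence matched 6 other genes under the same rule, among them the intronless Eno1b, which held 525, 788, 567, 622 and 1063 reads in MAMs and 202, 203, 125, 146 and 256 in RAMs. Eno1b was below the FPKM filter; without a filter its log2 fold change was 1.89 (edgeR adjusted p = 2.03e-05). Level and direction of Eno1 are therefore uncertain in these files. Eno2, the neuronal enolase, was at 3.44, 0.956, 2.84, 4.52 and 2.97 CPM in MAMs and at 0.188, 0.135, 0.393, 0 and 0.171 CPM in RAMs. It was low but separate between groups (log2 4.04, SE 0.77, edgeR adjusted p = 3.87e-04). The Eno2 to Eno1 ratio (log2 difference 3.91, exact permutation p = 0.00794, adjusted p = 0.0123) rests on the few reads of Eno1, and by FPKM it was 2.16 and did not pass (exact permutation adjusted p = 0.135).

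The lactate dehydrogenases were both higher in MAMs. Ldha, whose product favours the reduction of pyruvate to lactate, was at 1099, 1113, 984, 1047 and 1138 CPM in MAMs and at 293, 277, 309.6, 343 and 336 CPM in RAMs. The MAM libraries lay close together and well above the RAM libraries, a difference of 3.45-fold (log2 1.79, SE 0.08, edgeR adjusted p = 3.07e-11). Ldhb, whose product favours the reverse reaction, was at 0.549, 0.562, 1.21, 4.90 and 4.07 CPM in MAMs and at 0.0685, 0.0751, 0, 0.230 and 0.0853 CPM in RAMs. All MAM libraries were higher, but they spread widely among themselves (log2 4.60, SE 0.94, edgeR adjusted p = 6.51e-04), and the value was 5.23 without RAM replicate 4. Ldha held over 99% of the summed FPKM in every library, with means of 751 in MAMs and 225 in RAMs. The Ldhb to Ldha ratio differed by 2.67 on the log2 scale with overlapping groups (exact permutation p = 0.0238, adjusted p = 0.0337), and its adjusted p rose to 0.0675 when any of 7 libraries was left out. The difference was 1.99 without RAM replicate 3.

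Of the lactate carriers, Slc16a3 was higher in MAMs and Slc16a1 was not called. Slc16a3, which encodes MCT4, the carrier suited to lactate release, was at 139, 178, 138, 135 and 160.0 CPM in MAMs and at 18.2, 19.6, 19.9, 18.7 and 29.2 CPM in RAMs. It was 7.10-fold higher in MAMs with no overlap (log2 2.83, SE 0.14, edgeR adjusted p = 2.08e-10). Slc16a1, which encodes MCT1, a carrier that works in both directions, was at 8.48, 22.4, 29.9, 8.70 and 22.2 CPM in MAMs and at 15.3, 17.5, 10.4, 14.5 and 15.1 CPM in RAMs. MAM replicates 1 and 4 lay below every RAM library and the other 3 above (log2 0.33, SE 0.32, edgeR adjusted p = 0.397). Of the summed FPKM of Slc16a3 and Slc16a1, Slc16a3 supplied 95.4% ± 2.41 in MAMs and 77.5% ± 5.37 in RAMs (SD, n = 5). From counts per kilobase of exon its shares were 87.6% and 54.6%. The Slc16a3 to Slc16a1 count ratio was 6.37-fold higher in MAMs (log2 difference 2.67, exact permutation p = 0.00794, adjusted p = 0.0123).

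The PFKFB enzymes make and degrade fructose 2,6-bisphosphate, a strong activator of phosphofructokinase, and a different gene led in each group. Pfkfb3, the form with the highest kinase activity, was at 188, 223, 245, 279 and 182 CPM in MAMs and at 59.1, 57.4, 59.6, 47.9 and 45.7 CPM in RAMs. Pfkfb4, which also carries strong phosphatase activity, was at 19.6, 24.4, 24.9, 30.3 and 27.4 CPM in MAMs and at 92.0, 71.7, 91.8, 80.1 and 81.4 CPM in RAMs. Neither gene overlapped between groups. Pfkfb3 was 4.14-fold higher in MAMs (log2 2.05, SE 0.13, edgeR adjusted p = 2.48e-09) and Pfkfb4 3.29-fold lower (log2 -1.72, SE 0.13, edgeR adjusted p = 1.74e-08). Pfkfb2, the heart-type form, ranged from 44.5 to 69.6 CPM in MAMs and from 40.9 to 47.7 CPM in RAMs and was not called (log2 0.25, SE 0.12, edgeR adjusted p = 0.104). It passed without MAM replicate 2 (log2 0.31, edgeR adjusted p = 0.049). As annotated, 19.5% of its exon bases overlap other genes.

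By FPKM, Pfkfb3 held 75.1% ± 4.18 of the PFKFB sum in MAMs and 24.9% ± 3.34 in RAMs, and Pfkfb4 held 12.7% ± 0.99 and 61.3% ± 4.04 (SD, n = 5). The count ratio of Pfkfb3 to Pfkfb4 was 13.6-fold higher in MAMs (log2 difference 3.77, exact permutation p = 0.00794, adjusted p = 0.0123). The sum itself was 55.4 ± 8.19 FPKM in MAMs and 39.5 ± 3.56 in RAMs.

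The pyruvate dehydrogenase kinases, which inactivate pyruvate dehydrogenase, were the only role without a member called higher. Pdk4, the form induced by fasting and fatty acids, was at 1.08, 0.206, 4.61, 0.145 and 0.129 CPM in MAMs and at 25.9, 23.6, 19.8, 22.7 and 21.9 CPM in RAMs. MAM replicate 3 stood above the other MAM libraries and still below every RAM library. Pdk2, a widely expressed form, was at 3.64, 3.84, 3.51, 7.15 and 9.18 CPM in MAMs and at 24.98, 25.3, 23.5, 27.7 and 33.7 CPM in RAMs. Pdk4 was 18.8-fold lower in MAMs (log2 -4.24, SE 0.81, edgeR adjusted p = 3.88e-04), and -5.91 on the log2 scale without MAM replicate 3. Pdk2 was 4.93-fold lower (log2 -2.30, SE 0.28, edgeR adjusted p = 4.78e-06).

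Pdk1, a known HIF target, ranged from 33.2 to 46.6 CPM in MAMs and from 31.6 to 44.2 CPM in RAMs, and Pdk3 from 19.2 to 27.5 CPM and from 15.99 to 23.3 CPM. Both overlapped and were not called (log2 0.16, SE 0.13, edgeR adjusted p = 0.305 for Pdk1 and log2 0.24, SE 0.16, edgeR adjusted p = 0.218 for Pdk3). The sum of the 4 kinases was 21.3 ± 1.71 FPKM in MAMs and 35.7 ± 1.74 in RAMs (SD, n = 5). Pdk2 led in RAMs with 39.0% ± 5.28 of it and Pdk3 in MAMs with 49.9% ± 8.00. Relative to Pdk1, Pdk2 was 5.96-fold lower and Pdk4 54.2-fold lower in MAMs (exact permutation p = 0.00794, adjusted p = 0.0123 for each). The log2 difference of the Pdk4 to Pdk1 ratio was -5.76, and -6.57 without MAM replicate 3. Pdk3 to Pdk1 differed by 0.08 on the log2 scale (exact permutation p = 0.698, adjusted p = 0.742).

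**Figure D3:**
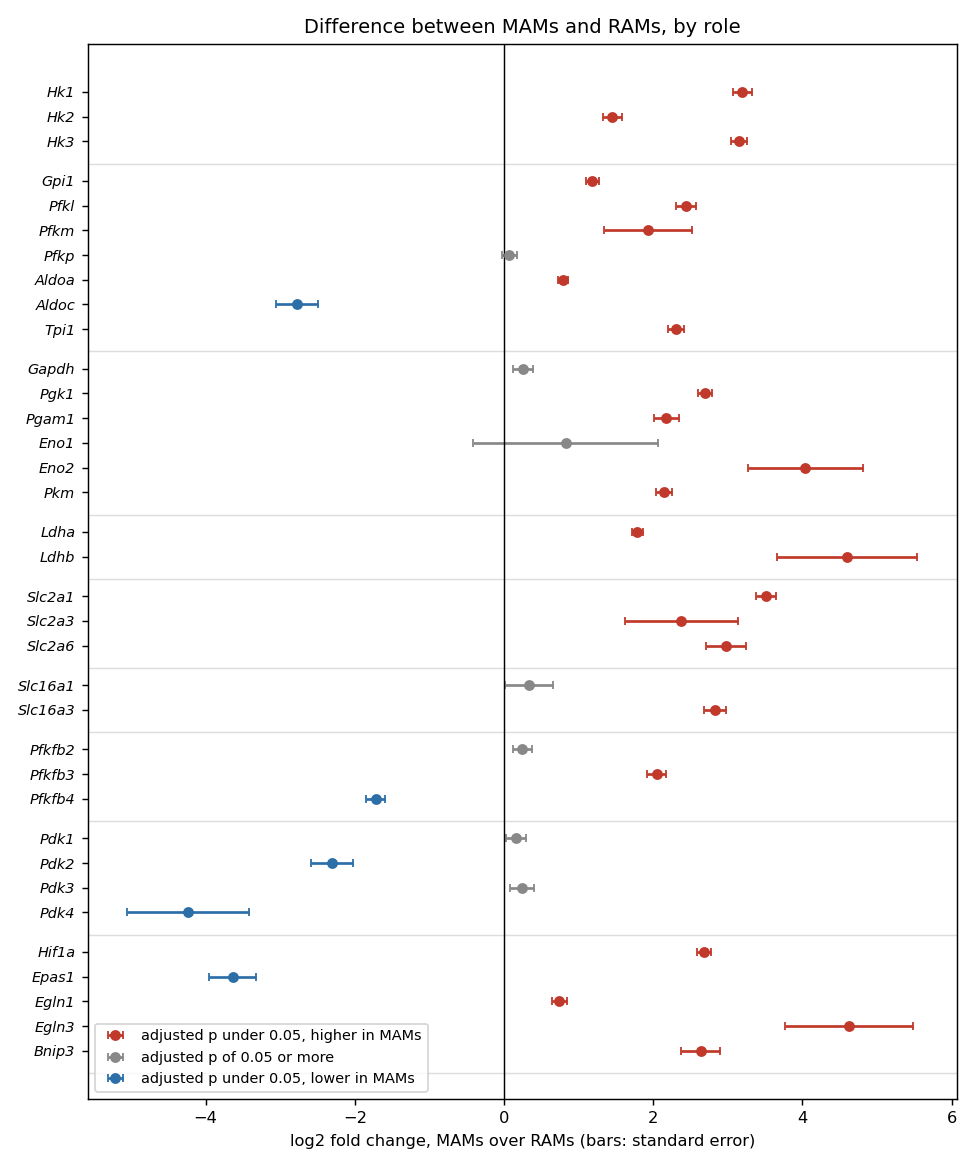
Log2 fold change of MAMs over RAMs for the 35 genes, ordered by role from hexokinases (top) to oxygen sensing (bottom), with bars for the standard error derived from edgeR's F statistic. Red points (23) were called higher, blue points (5) lower, and grey points (7) were not called; the widest bars belong to genes with few reads, such as Eno1, Ldhb and Egln3.

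Among the oxygen-sensing genes, the HIF alpha subunits diverged. Hif1a, located at chr12:73901375-73947530 on the plus strand, stood at 689, 671, 581, 639 and 655 CPM in MAMs and at 89.0, 95.9, 92.5, 113 and 115 CPM in RAMs. Epas1, located at chr17:86753700-86833410 on the plus strand, encodes HIF-2 alpha, and stood at 5.84, 5.42, 6.89, 2.80 and 2.15 CPM in MAMs and at 43.7, 48.3, 48.6, 82.0 and 63.6 CPM in RAMs. The groups were separate for both, in opposite directions. Hif1a was 6.40-fold higher in MAMs (log2 2.68, SE 0.09, edgeR adjusted p = 2.38e-12) and Epas1 12.4-fold lower (log2 -3.64, SE 0.31, edgeR adjusted p = 9.34e-08). By FPKM, Hif1a held 99.2% ± 0.34 of the sum of both in MAMs and 61.6% ± 4.06 in RAMs (SD, n = 5). The Epas1 to Hif1a count ratio differed by -6.41 on the log2 scale, or 84.9-fold, the widest difference of the 17 ratios (exact permutation p = 0.00794, adjusted p = 0.0123). HIF activity depends on protein stability, which was not measured.

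Egln1, which encodes PHD2, the main oxygen-dependent hydroxylase of HIF alpha, ranged from 123 to 144 CPM in MAMs and from 68.4 to 95.8 CPM in RAMs, 1.67-fold higher in MAMs (log2 0.74, SE 0.10, edgeR adjusted p = 8.11e-06). Egln3, which encodes PHD3 and is itself induced by HIF, was at 3.78, 14.8, 6.35, 11.9 and 3.53 CPM in MAMs and at 0.0514, 0.676, 0, 0.188 and 0.703 CPM in RAMs. The lowest MAM library was above the highest RAM library (log2 4.62, SE 0.86, edgeR adjusted p = 3.04e-04), and Egln3 held 6.63% ± 3.50 of the FPKM of both hydroxylases in MAMs and 0.34% ± 0.41 in RAMs (SD, n = 5). Bnip3, a mitophagy receptor and HIF target, was at 35.1, 40.9, 40.3, 54.8 and 41.3 CPM in MAMs and at 8.90, 10.3, 6.05, 3.51 and 5.31 CPM in RAMs, a difference of 6.22-fold without overlap (log2 2.64, SE 0.26, edgeR adjusted p = 4.49e-07). As annotated, 22.3% of the exon bases of Bnip3 overlap another gene and 5 genes hold near-identical copies of its coding sequence. The Egln3 to Egln1 ratio was 4.83 higher on the log2 scale in MAMs (exact permutation p = 0.00794, adjusted p = 0.0123). It was 3.82 without RAM replicate 3, which had no Egln3 read, and 5.42 without RAM replicate 5.

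Some of the 35 genes share sequence with others, which bears on how far uniquely mapped reads represent them. Near-identical copies, mostly pseudogenes, were found for 12, among them Ldha with 11 and Aldoa with 6, and 13 overlap another annotated gene, with over 10% of exon bases for 5. Of the 17 members with neither, 9 were higher and 5 lower in MAMs, where 28.9% and 27.3% of all tested genes were. No strand setting is given for the counting, so reads of overlapping genes cannot be assigned to a strand.

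Genes of the same and adjoining pathways that are not among the 35 were described by lists. The counts of each list stand beside 28.9% of all tested genes higher in MAMs and 27.3% lower. Of 27 other enzymes and transporters of glycolysis, 13 were tested, and 3 were higher and 5 lower in MAMs, with a median log2 fold change of -0.36. The summed level of the 13 was nonetheless higher in MAMs, at 503 to 613 CPM against 395 to 445 CPM in RAMs. The 3 higher genes, Bsg (log2 0.95), Slc2a9 (log2 0.81) and Emb (log2 0.73), each differed by less than 2-fold. Those lower by more than 2-fold were Eno4, an enolase known from sperm (log2 -2.68, SE 0.25, edgeR adjusted p = 2.52e-07), Ldhd, which oxidises D-lactate (log2 -2.61, SE 0.36, edgeR adjusted p = 1.87e-05), and Slc2a8, an intracellular glucose carrier (log2 -1.37, SE 0.25, edgeR adjusted p = 2.60e-04). Of 9 tested genes of pyruvate import and the pyruvate dehydrogenase complex, 4 were lower and 0 were higher by edgeR (also 0 at an unadjusted p under 0.05, and 0 by DESeq2 and limma), with a median of 0.02 and no difference over 2-fold.

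In the pentose phosphate pathway 2 of 10 tested genes were higher and 6 lower, with a median log2 fold change of -0.44. Their summed level was not lower in MAMs, at 1072 to 1359 CPM against 991 to 1180 CPM in RAMs, with overlap. G6pdx, among the most abundant of them (mean 407 CPM in MAMs and 275 CPM in RAMs), was higher (log2 0.57, SE 0.07, edgeR adjusted p = 1.00e-05). H6pd, the enzyme of the pathway in the endoplasmic reticulum, was also higher (log2 1.30, SE 0.13, edgeR adjusted p = 5.03e-07). Tktl1, a transketolase-like gene (log2 -4.48, SE 0.57, edgeR adjusted p = 7.76e-06), Shpk, a sedoheptulose kinase (log2 -3.13, SE 0.55, edgeR adjusted p = 1.86e-04), and Rpia, ribose 5-phosphate isomerase (log2 -1.54, SE 0.18, edgeR adjusted p = 3.22e-06), were lower. Of 18 tested genes of gluconeogenesis and glycogen, 4 were higher and 7 lower, with a median of -0.25. Gbe1, the glycogen branching enzyme (log2 2.73, SE 0.18, edgeR adjusted p = 3.95e-09), and Pgm2, of the phosphoglucomutase family (log2 1.21, SE 0.26, edgeR adjusted p = 1.04e-03), were higher. Pygl, a glycogen phosphorylase (log2 -2.15, SE 0.10, edgeR adjusted p = 6.73e-11), and Gyg, glycogenin, the glycogen primer (log2 -1.05, SE 0.11, edgeR adjusted p = 7.61e-07), were lower.

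**Figure D4:**
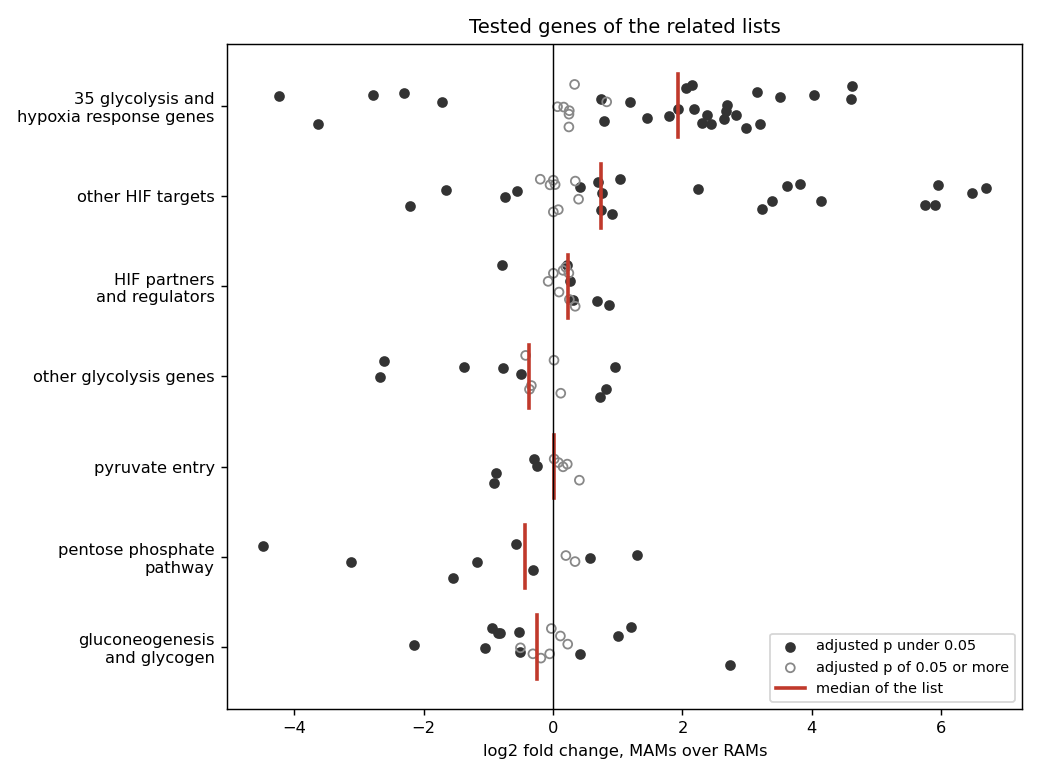
Log2 fold change of MAMs over RAMs for the tested genes of the 35-gene list and of related lists, a point per gene, filled where the adjusted p was under 0.05, with the list's median as a red line. The medians run from -0.44 for the pentose phosphate pathway to 0.73 for other HIF targets and 1.93 for the 35 genes.

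Of 36 HIF targets outside glycolysis, 29 were tested, and 17 were higher and 4 lower in MAMs, with a median log2 fold change of 0.73. P4ha2, a collagen prolyl hydroxylase, had 602 to 901 reads per MAM library and 3 to 12 per RAM library (log2 6.70, SE 0.42, edgeR adjusted p = 2.80e-09). Egfr, the receptor of epidermal growth factor, had 89 to 864 and 0 to 15, and Adm, which encodes the peptide adrenomedullin, 12 to 113 and 0 to 2, so the size of their fold changes is poorly set. Vegfa, which encodes the vascular growth factor and was named after its values were seen, averaged 217 CPM in MAMs and 3.60 CPM in RAMs (log2 5.91, SE 0.19, edgeR adjusted p = 1.54e-12). Bhlhe41, a transcriptional repressor (log2 -2.21, SE 0.21, edgeR adjusted p = 3.67e-07), and Bnip3l, the paralog of Bnip3 (log2 -1.65, SE 0.10, edgeR adjusted p = 1.08e-09), were lower, so Bnip3 and Bnip3l went in opposite directions. Of 14 tested partners and regulators of the HIF alpha subunits, 5 were higher and 1 lower, none by more than 2-fold, with a median of 0.23, and only 1 was higher under upper-quartile scaling or with library totals alone.

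The direction of small differences depended on scaling, because upper-quartile scaling moved the median log2 fold change of all genes by -0.16 and library totals alone by -0.23. Of all calls 51.4% were higher in MAMs under TMM, 40.3% under upper-quartile scaling and 36.4% with library totals. Under these and every other alternative that tested them, the 28 called members kept their direction and their call.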

How the data were processed

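RNA-seq of 5 MAM and 5 RAM libraries was used. Per the labels, libraries were made with Ovation RNA-Seq System V2 and read from both ends on an Illumina HiSeq. The authors aligned reads to GRCm38 (mm10) with TopHat2 2.0.13, counted uniquely mapped reads per gene on UCSC RefGene models with HTSeq 0.6.1 and deposited whole-number counts per library without normalization. They also deposited FPKM values from Cufflinks 2.2.1, scaled by transcript length and mapped fragments. Their own DESeq2 1.6.3 results were not used. Lines that name no gene, left out here, held 54.6% to 58.3% of all counts in MAMs and 62.2% to 64.1% in RAMs. Reads on no annotated feature alone held 38.3% to 43.1% in MAMs and 48.7% to 50.8% in RAMs, without overlap between groups.

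Genes whose FPKM averaged 1 or more in MAMs or in RAMs were tested on counts with edgeR 4.0.16 (quasi-likelihood test, TMM, no covariates, Benjamini-Hochberg) in R 4.3.3. A gene was called at an adjusted p under 0.05. Ratios of counts within a library had 0.5 added. Libraries were grouped by their labels. Every member is named. Of other lists, up to 3 genes per direction with the largest fold change over 2 are named. Slc16a7, Slc2a9, Bsg, Emb and G6pdx were named besides these after their values were seen, as was Vegfa. The members and lists were chosen with earlier results of these data known. Alternatives were DESeq2 1.42.0, other scalings and filters, limma 3.58.1 on FPKM, a replicate block and each library left out. Same-numbered libraries did not deviate together (r from -0.04 to 0.03), so the numbers were not taken as pairs. Fits were tested on simulated data. A count of 0 allows up to 3 reads, a limit from counting alone, since the libraries had no molecular identifiers to mark PCR duplicates. Copies were searched with BLAST, and gene positions came from GENCODE M21. Figures were drawn with matplotlib 3.10.9.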

Additional observations from a re-analysis of the deposited data

Results flagged for a closer look

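In 9 of 104 groups of 5 values (35 genes and 17 ratios, in each group), a library lay far from the others, with a gap to its nearest neighbour above Dixon's critical value. Chance alone flags about 1 in 20 groups, or 5.20 here. Among RAMs, replicate 5 was highest for Aldoa at 582 CPM (the others 498 to 522), for Slc16a3 at 29.2 CPM (18.2 to 19.9) and for Eno1 at 0.149 CPM (0 to 0.0207, a few reads). RAM replicate 2 was highest for Slc2a3 at 3.20 CPM (0.125 to 0.639), and RAM replicate 4 had the highest log2 ratio of Aldoc to Aldoa, -2.94 (-3.59 to -3.40). Among MAMs, replicate 2 was highest for Aldoc at 14.5 CPM (4.49 to 6.59) and replicate 3 for Pdk4 at 4.61 CPM (0.129 to 1.08). MAM replicate 1 was lowest for Pdk1 at 33.2 CPM (44.6 to 46.6), and MAM replicate 5 had the lowest log2 ratio of Pfkfb3 to Pfkfb4, 2.73 (3.19 to 3.30). Of these, the fold changes of Slc2a3, Pdk4 and Eno1 moved by more than 1.5 times without the library named.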

How the results depend on the processing

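Over all alternatives, 656 refits of a single member kept direction and side of the threshold, 5 reversed and 3 came to pass, and the 28 called members kept both in all of theirs. Members not called turned below 0 for Pfkp (-0.098 with upper-quartile scaling, -0.16 with library totals), Pdk1 (-0.00068 and -0.061) and Eno1 (-0.20 to 2.22 when a library was left out), while Gapdh passed with limma on FPKM (0.85 and 0.90 with 1 and 0.1 added) and Pfkfb2 without MAM replicate 2 (0.31). HIF regulators called higher fell to 1 with upper-quartile scaling and with library totals, and those called lower rose to 2 with library totals and without a filter. Genes of pyruvate entry called higher ranged from 0 to 1 when a library was left out, the 1 arising without MAM replicate 1. Ratios that were not called changed sign for Hk3 to Hk1 (0.032 by FPKM, -0.11 to 0.030 when a library was left out), Pfkm to Pfkl (0.12 by FPKM, -0.72 to 0.036), Pdk3 to Pdk1 (-0.053 to 0.17) and Slc2a3 to Slc2a1 (-0.89 to 0.44). Of the ratios that differed, Eno2 to Eno1 (2.16) and Ldhb to Ldha (1.27) did not pass by FPKM. With counts per kilobase of exon in place of FPKM, 19 of 20 leading isoenzymes per step and group remained, the exception being Pfkl in place of Pfkp in MAMs. The cause of these changes was not tested.

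With the replicate number as a block, 23 members were higher and 5 lower, as without it. Only 3 of 10 libraries correlated best with one of their own number. Paired sign flips of the ratios cannot give a p under 0.0625, so 0 of 17 passed under that pairing. Low counts in RAMs limit how well the fold changes of Eno2, Ldhb, Slc2a3, Egln3 and Pfkm are set. Eno1 was low in both groups (0 to 12 reads in MAMs and 0 to 7 in RAMs), and the part of its copies in this was not tested.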
